A study of Homo sapiens with 6 samples.

Results

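The globin genes encode the protein chains of haemoglobin, and 9 of them were examined together with NPRL3, the gene next to the alpha-globin cluster. The members were HBB, HBD, HBG1, HBG2 and HBE1 of the beta cluster, HBA1, HBA2, HBZ and HBQ1 of the alpha cluster, and NPRL3. They were taken by gene name from a deposited table of 58302 rows, and all 10 had a row. The set was put together with the difference between the DDX17_KO and control libraries already known. Its levels in these libraries are therefore a description, and no test is given for them.

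RNA was sequenced from MHCC97H, a human hepatocellular carcinoma cell line. The 3 DDX17_KO libraries came from a line in which DDX17, an RNA helicase gene, had been targeted with CRISPR/Cas9. The 3 control libraries came from a non-target control line made with the same system. Both lines were grown in DMEM with fetal bovine serum and antibiotics, and the labels name no other agent. The labels do not say whether either line is 1 clone, or whether the libraries came from separate cultures, so p-values measure the spread between these libraries, which may be technical.

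Adult haemoglobin is a tetramer of alpha chains, from HBA1 and HBA2, and beta chains, from HBB. HBD gives the minor adult delta chain, HBG1 and HBG2 give the fetal gamma chains, and HBE1 and HBZ give the embryonic epsilon and zeta chains. HBQ1 encodes the theta chain, whose function is unclear. Each cluster is driven in red cell precursors by distal enhancers. Those of the beta cluster form the locus control region, and the main ones of the alpha cluster lie in introns of NPRL3. NPRL3 is expressed in many tissues and encodes a subunit of GATOR1, the complex that restrains mTORC1 signalling when amino acids are scarce.

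HBA1 and HBA2 are near-identical copies, so that most fragments from either fit both. In their GENCODE transcripts, all 426 coding bases before the stop codon and all 37 bases of the 5′ untranslated region were the same. The 3′ untranslated regions differed at 19 aligned bases and 1 gap position. The first 90 coding bases are shown because they are the same run in both genes, with the start codon in capitals. They begin at position 172913 of chromosome 16 for HBA2 and at 176717 for HBA1, on the plus strand of GRCh38, and lie in the first exon.
HBA2: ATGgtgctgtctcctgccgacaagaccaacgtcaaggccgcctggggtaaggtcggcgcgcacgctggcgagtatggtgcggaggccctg
HBA1: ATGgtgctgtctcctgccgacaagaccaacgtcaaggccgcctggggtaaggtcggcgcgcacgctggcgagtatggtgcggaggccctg

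The promoters of HBD and NPRL3 are shown to set a globin promoter beside that of the broadly expressed neighbour. RefSeq promoter sequences were matched for 2 of the 10 members, HBD and NPRL3, in build GRCh38.p14. Each runs from 250 bases before the start of the gene to 50 bases after it, on the strand of the gene, which is the minus strand for both. Capitals mark matches, on either strand, to 4 motifs. The first motif is GATAA, the core of sites for the zinc finger factors GATA1 and GATA2. The second motif is CCAAT, a promoter element found in many genes besides the globins. The third motif is CACCC, the core of the sites to which the red cell factor KLF1 binds. The last motif is ATAAA, a run like that of the TATA box. The 4 motifs share no position in these sequences.
HBD, chr11:5234434-5234733: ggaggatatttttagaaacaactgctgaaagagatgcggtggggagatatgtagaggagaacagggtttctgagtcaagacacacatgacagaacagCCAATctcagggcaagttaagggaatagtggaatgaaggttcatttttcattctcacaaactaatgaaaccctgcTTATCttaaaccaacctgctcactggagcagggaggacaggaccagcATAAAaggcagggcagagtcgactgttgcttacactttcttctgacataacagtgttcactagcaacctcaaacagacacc
NPRL3, chr16:138624-138923: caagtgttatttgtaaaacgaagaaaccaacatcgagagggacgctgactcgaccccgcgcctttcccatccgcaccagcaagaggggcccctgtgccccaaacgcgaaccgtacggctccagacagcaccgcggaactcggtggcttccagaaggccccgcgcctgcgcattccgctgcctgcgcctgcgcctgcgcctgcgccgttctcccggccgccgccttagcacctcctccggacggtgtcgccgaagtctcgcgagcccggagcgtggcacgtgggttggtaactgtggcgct

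The HBD window held 3 matches. The second motif began 153 bases before the start, the first motif, read on the opposite strand, 78 bases before it, and the last motif 31 bases before it. The NPRL3 window held 0 matches to these letters. Of all 35116 RefSeq promoter windows of this length, 22.7% held the first motif, 34.6% the second, 59.9% the third and 34.9% the last, on either strand. The windows also differed in base composition, with 36 CpG dinucleotides and 66.3% GC at NPRL3, 2 CpG dinucleotides and 44.7% GC at HBD, and a median of 14 CpG dinucleotides over all windows. HBD does not stand for globin promoters in general. The window of HBM, a globin gene of the alpha cluster that is not a member, was close to NPRL3 in composition. It had 33 CpG dinucleotides and 69.3% GC, with 2 motif matches.

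The depth of each library was estimated from the steps between low FPKM values (fragments scaled to the length of the transcript and the depth of the library). It was 5340000 to 10600000 fragments in the DDX17_KO libraries and 12340000 to 14590000 in the control libraries, so the DDX17_KO libraries were all the shallower ones. DDX17 itself had 22.4, 7.64 and 19.1 FPKM in the DDX17_KO libraries, against 45.7, 41.4 and 43.9 FPKM in the control libraries. Every DDX17_KO library was below every control library, with a log2 fold change of -1.48 ± 0.36 (SE) and an adjusted p of 0.282 in limma over all genes. Without DDX17_KO replicate 2 these were -1.04 and 0.0334. The exact permutation p, two-sided over 20 arrangements, was 0.1, the smallest that 3 libraries against 3 allow. Values of a group are given in the order of replicates 1, 2 and 3 throughout. Replicates 2 stood apart from the rest in both groups. Their deviations from the group mean rose with the GC content of the gene, with Spearman correlations across genes of 0.51 in DDX17_KO and 0.571 in control, against -0.522 to -0.311 in the other 4 libraries.

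HBB, the adult beta chain, was the most abundant globin of the control line and was listed at 0 in every DDX17_KO library. HBB (ENSG00000244734, hg38 chromosome 11, 5225464 to 5229395) had 0 FPKM in the DDX17_KO libraries, against 29.4, 23.1 and 25.6 FPKM in the control libraries. The control libraries lay close together and the groups were far apart. At the length of its transcript, the control values amount to about 228, 202 and 235 fragments. A level of 3 fragments would have been 0.451, 0.895 and 0.583 FPKM in the DDX17_KO libraries, so each DDX17_KO library was deep enough to show HBB far below the control level. These limits cover counting error only. No fold change is given against a group listed at 0. RNA of bulk cultures cannot tell fewer cells that express a gene apart from less RNA per cell.

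The adult alpha genes had the same pattern. HBA2 (ENSG00000188536, chromosome 16, 172847 to 173710) was listed at 0 FPKM in all 3 DDX17_KO libraries, against 17.0, 13.8 and 16.5 FPKM in the control libraries. HBA1 (ENSG00000206172, chromosome 16, 176680 to 177522) had 0, 0.652 and 0.0708 FPKM in the DDX17_KO libraries, against 22.9, 17.0 and 19.8 FPKM in the control libraries. All DDX17_KO values were far below all control values at both genes. At the length of its transcript, the HBA1 value in DDX17_KO replicate 2 is about 2.01 fragments and that in replicate 3 about 0.33, which is less than 1 whole fragment. How the quantification divided fragments between HBA1 and HBA2 is not given in the sources used here, so the sum of the pair is firmer than either value. The sum was 0, 0.652 and 0.0708 FPKM in the DDX17_KO libraries, against 39.9, 30.8 and 36.3 FPKM in the control libraries.

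In the control line the order of levels per length was HBB, HBA1, HBA2 in each of the 3 libraries. HBB averaged 26.1 ± 3.17 FPKM, HBA1 19.9 ± 2.97 FPKM and HBA2 15.8 ± 1.75 FPKM (SD, n = 3). The lowest HBB value lay just above the highest HBA1 value, while the ranges of HBA1 and HBA2 overlapped slightly. The alpha sum divided by HBB was 1.36, 1.33 and 1.42 in control replicates 1, 2 and 3, so alpha and beta RNA kept nearly the same proportion. By its mean control level HBB exceeded 92.2% of the 15620 genes tested, HBA1 89.5% and HBA2 86.9%. Among all rows of the table HBB ranked 1030, 1433 and 1220 in control replicates 1, 2 and 3.

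**Figure D1:**
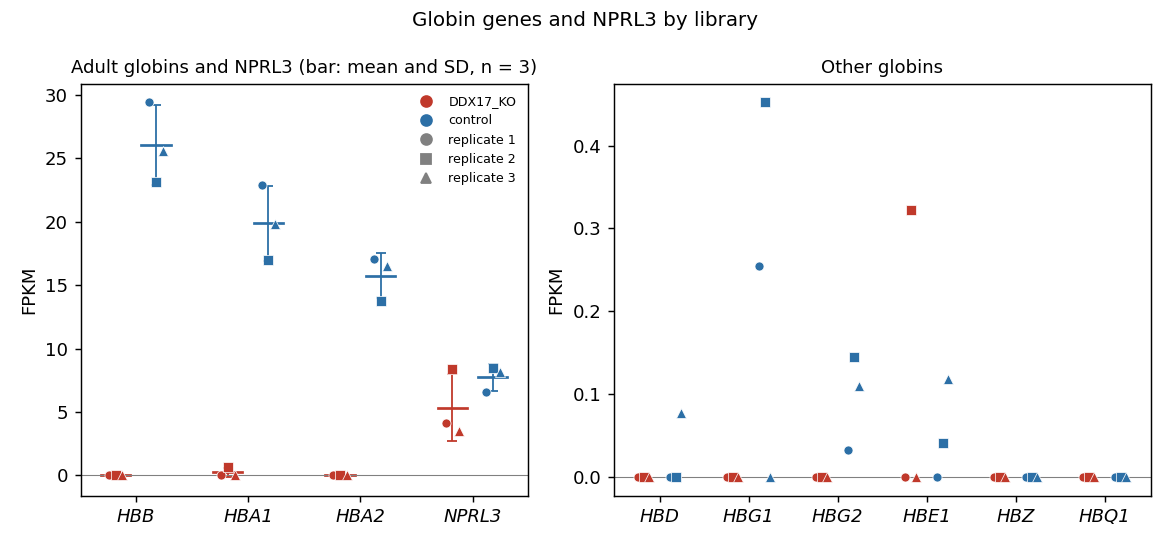
FPKM (vertical axes) of each member in the 3 DDX17_KO (red) and 3 control (blue) libraries, with marker shapes for the replicate and, in the left panel, bars for the mean and SD. HBB, HBA1 and HBA2 lie at or near 0 in DDX17_KO and between 13.8 and 29.4 FPKM in control, NPRL3 overlaps, and the right panel, on a much smaller scale, holds the globins below 0.5 FPKM.

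The delta, fetal, embryonic and theta genes were at or near 0 in both lines. HBD had 0 FPKM in all 3 DDX17_KO libraries, against 0, 0 and 0.0774 FPKM in the control libraries. HBG1 had 0 FPKM in all 3 DDX17_KO libraries, against 0.255, 0.452 and 0 FPKM in the control libraries. HBG2 had 0 FPKM in all 3 DDX17_KO libraries, against 0.0326, 0.144 and 0.110 FPKM in the control libraries. The control values of these genes are about 4.9 fragments at most, in 1 library for HBG1, so nothing can be read from their differences at this depth. HBG1 and HBG2 are near-identical copies as well, and the division between them is uncertain. HBE1 had 0, 0.323 and 0 FPKM in the DDX17_KO libraries, against 0, 0.0414 and 0.119 FPKM in the control libraries, and the groups overlapped. HBZ and HBQ1 were at 0 in all 6 libraries. In the files the rows of HBG2 and HBE1 span 5253190 to 5645789 and 5268345 to 5505617 of chromosome 11, which overlap each other and other genes. The strand setting of the quantification is not given in the sources used here.

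Summed over the 9 globins, RNA came to 0, 0.975 and 0.0708 FPKM in the DDX17_KO libraries, against 69.7, 54.5 and 62.2 FPKM in the control libraries. HBB, HBA1 and HBA2 made up 98.8% to 99.6% of the control sums, so the globin RNA of the control line was of the adult kind.

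NPRL3 (ENSG00000103148, chromosome 16, 84271 to 138860), whose 5′ end lies 34.0 kb from the start of HBA2, was expressed in all 6 libraries. It had 4.13, 8.40 and 3.54 FPKM in the DDX17_KO libraries, against 6.55, 8.51 and 8.13 FPKM in the control libraries. DDX17_KO replicate 2 lay within the control range and the other DDX17_KO libraries lay below it, so the groups overlapped. The means were 5.36 ± 2.65 FPKM in DDX17_KO and 7.73 ± 1.04 FPKM in control (SD, n = 3 each), and the log2 difference on log2(FPKM + 1) was -0.53 ± 0.29 (SE). It was -0.85 without DDX17_KO replicate 2 and -0.24 after a correction of every library for GC content and transcript length. NPRL3 has a GC content of 60.2%, above that of 86.9% of the genes tested.

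Of the 10 members, 4 had at least 0.5 FPKM on average and entered the fit over all genes, namely HBB, HBA1, HBA2 and NPRL3. Of these 4, the groups did not overlap for HBB, HBA1 and HBA2, each lower in DDX17_KO. HBG2, which did not enter the fit, had no overlap either. Its control values are about 1.23 fragments at most, so nothing can be read from that. Of all 15620 genes tested, 12.6% were lower in DDX17_KO with groups that did not overlap and 8.09% were higher. These members were chosen on that contrast, so their count carries no information of its own.

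Some of the genes around the alpha cluster were expressed in both lines. Within 200 kb of the cluster on either side the table held 28 other genes, of which 14 passed the filter and 7 were at 0 in all 6 libraries. Of the 14, 12 were above 0 in every library. In limma with Benjamini-Hochberg adjustment over all genes, 0 of the 14 were past the threshold of 0.05 in either direction, against 0.0384% lower and 0% higher of all genes. At an unadjusted p under 0.05 there were 4 lower and 0 higher, against 7.19% lower and 6.31% higher of all genes. The 4 were MPG, TMEM8A, RHBDF1 and Z84723.1. The fold change was below 0 for 12 of the 14, against 8197 of 15620 over all genes tested, with a median of -0.44 on the log2 scale, against -0.03 over all genes tested. After the correction for GC content and length the median was -0.20.

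On the telomere side of the cluster, MPG, a DNA glycosylase gene, had 4.47, 9.76 and 4.78 FPKM in the DDX17_KO libraries, against 9.14, 13.3 and 11.2 FPKM in the control libraries. Only DDX17_KO replicate 2 reached the control range. Its log2 fold change was -0.79, with an adjusted p of 0.369 in limma. POLR3K, an RNA polymerase III subunit gene, averaged 13.4 FPKM in DDX17_KO and 17.2 FPKM in control, with overlap. SNRNP25, a minor spliceosome protein gene, averaged 10.1 FPKM in DDX17_KO and 13.3 FPKM in control, also with overlap. RHBDF1, an inactive rhomboid protein gene, averaged 0.735 FPKM in DDX17_KO and 1.47 FPKM in control, and its groups did not overlap. At the chromosome end lay WASH4P, MIR6859-4, Z84723.1 and IL9RP3, with control means of 0.466 to 2.18 FPKM. Z84723.1 had 0.365, 0 and 0 FPKM in the DDX17_KO libraries, against 0.944, 1.30 and 1.07 FPKM in the control libraries. It had the lowest adjusted p of the window, 0.233 in limma. MIR6859-4 was at 0 in DDX17_KO replicate 3 and above 0 in the other 5 libraries.

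On the other side, LUC7L, a splicing factor gene, averaged 3.49 FPKM in DDX17_KO and 3.71 FPKM in control. FAM234A, whose row lies beyond LUC7L, averaged 4.01 FPKM in DDX17_KO and 6.25 FPKM in control. AXIN1, a scaffold of the beta-catenin destruction complex, averaged 7.41 FPKM in DDX17_KO and 10.0 FPKM in control. MRPL28, a mitochondrial ribosomal protein gene, averaged 9.54 FPKM in DDX17_KO and 11.6 FPKM in control, and the groups of these 4 genes overlapped. TMEM8A had 4.48, 5.87 and 5.21 FPKM in the DDX17_KO libraries, against 7.87, 10.4 and 9.73 FPKM in the control libraries. These groups did not overlap, and the adjusted p was 0.289 in limma. Z69706.1, the nearest gene with expression to HBQ1, averaged 1.61 FPKM in DDX17_KO and 0.967 FPKM in control, with overlap. No gene of the window that was above 0.5 FPKM on average in control went to 0 in all DDX17_KO libraries except HBA2.

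**Figure D2:**
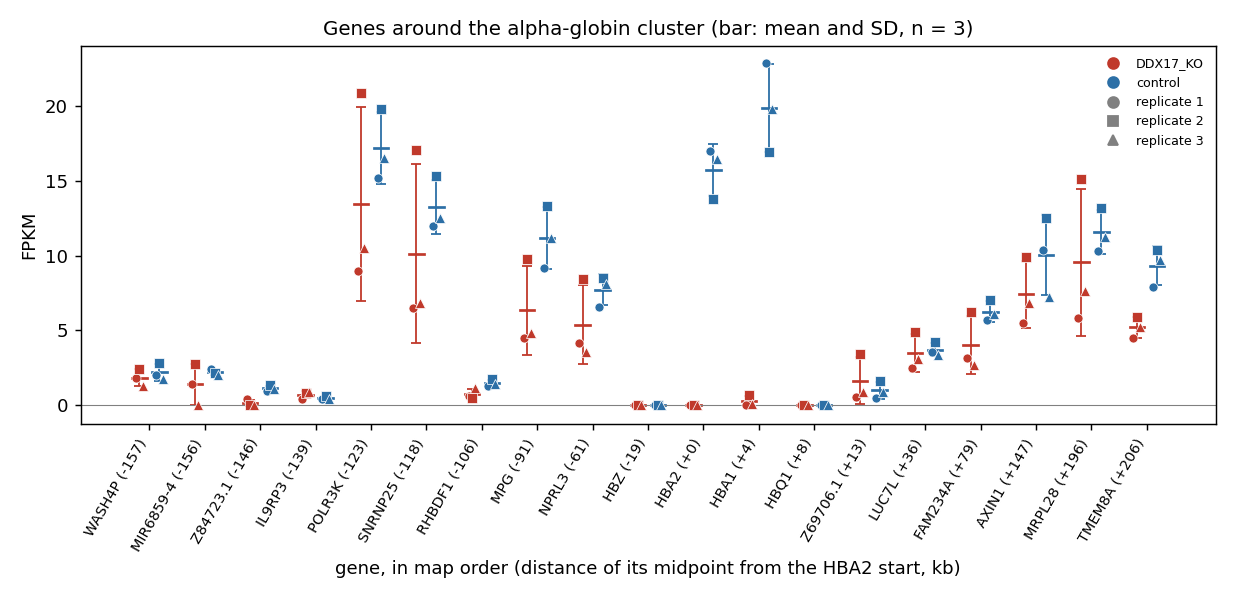
FPKM (vertical axis) of the alpha-cluster members, NPRL3 and the 14 tested genes within 200 kb, in map order, with the distance of each midpoint from the HBA2 start in kb in its label, DDX17_KO in red, control in blue and bars for the mean and SD of 3 libraries. HBA2 and HBA1 stand near 0 in DDX17_KO and at 15.8 and 19.9 FPKM on average in control, while 12 of the 14 neighbours are above 0 in all 6 libraries, the exceptions being Z84723.1 and MIR6859-4.

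Around the beta cluster almost nothing else was expressed. Of 52 other genes within 200 kb, 33 were at 0 in all 6 libraries and 1, TRIM5, a restriction factor gene, passed the filter. TRIM5 had 0.617, 0.837 and 1.17 FPKM in the DDX17_KO libraries, against 0.975, 0.692 and 0.661 FPKM in the control libraries, and the groups overlapped (adjusted p = 0.847 in limma). HBB was thus the only gene of its neighbourhood above 1 FPKM on average in the control libraries.

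Red cell genes did not accompany the globins in the control line. Of 20 red cell markers, 17 were below the filter and 6 were at 0 in all 6 libraries, among them KLF1 and GATA1, the transcription factors of the red cell line, and EPB42, a membrane skeleton gene. AHSP, the chaperone of free alpha chains, was at 0 in all DDX17_KO libraries and at 0, 0 and 0.0977 FPKM in the control libraries. ALAS2, the red cell enzyme that starts haem synthesis, was at 0 in all DDX17_KO libraries, against 0.206, 0.0915 and 0.109 FPKM in the control libraries. RHAG, a Rh complex gene, ran the other way, with 0.0472, 0.281 and 0.183 FPKM in the DDX17_KO libraries, against 0 in all control libraries. The 17 low markers summed to 0.0761 to 0.446 FPKM in DDX17_KO and 0.263 to 0.394 FPKM in control, with overlap, where globin RNA summed to 54.5 to 69.7 FPKM in control. ERMAP, XK and SELENBP1, which other tissues also express, were above the filter in both lines, and 0 of the 3 passed the threshold in limma.

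Markers of blood cells that could accompany red cells were low as well. The 12 leukocyte markers summed to 0.145 to 0.406 FPKM in DDX17_KO and 0.144 to 1.22 FPKM in control. PTPRC, the pan-leukocyte marker CD45, was at 0 in all DDX17_KO libraries and reached 0.0151 FPKM in 1 control library. The 6 platelet markers summed to 0.0535 to 0.164 FPKM in DDX17_KO and 0.128 to 0.534 FPKM in control. Both sums overlapped between the groups.

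Markers of the labelled tissue were nearly absent from both lines. Of 18 hepatocyte and liver cancer markers, 0 passed the filter. ALB, the serum albumin gene, was at 0 in all DDX17_KO libraries, against 0.347, 0.205 and 0.365 FPKM in the control libraries. The 18 markers summed to 0.183, 0.197 and 0.139 FPKM in the DDX17_KO libraries, against 1.34, 1.03 and 1.39 FPKM in the control libraries. In DDX17_KO 11 of the 18 were at 0 in every library, and in control 2 were. The DDX17_KO libraries were also the shallower ones, and the part of depth in these counts was not tested. The sum of the 18 markers was lower in every DDX17_KO library, the direction in which the globins moved. The part of this sum in the globin difference was not tested. Not every marker went that way. CYP2E1 had 0.0242, 0.0481 and 0.0418 FPKM in the DDX17_KO libraries, against 0 in all control libraries. HPX averaged 0.0824 FPKM in DDX17_KO and 0.0296 FPKM in control, also without overlap. The simple epithelial keratins KRT8 and KRT18 were abundant in both lines, and the other 3 epithelial markers summed to 0.0590 to 0.160 FPKM in DDX17_KO and 0.405 to 0.499 FPKM in control. This sum too was lower in every DDX17_KO library, and its part in the globin difference was not tested. CDH1, among these 3 markers, overlapped between the groups, averaging 0.0671 FPKM in DDX17_KO and 0.0608 FPKM in control.

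**Figure D3:**
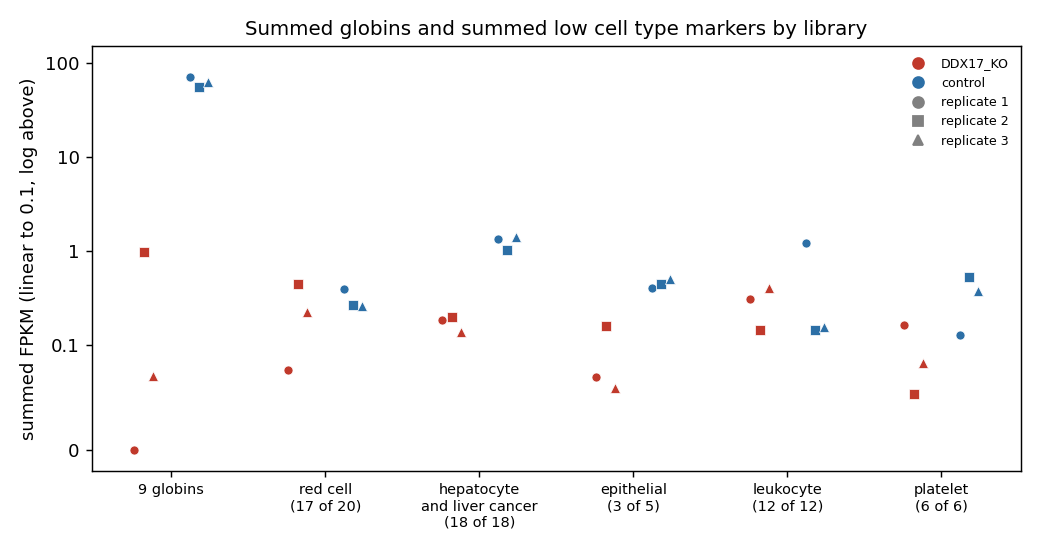
Summed FPKM (vertical axis, linear up to 0.1 and logarithmic above) of the 9 globins and of the markers of each cell type with a mean below 0.5 FPKM, in DDX17_KO (red) and control (blue) libraries, with the number of markers summed under each name. The globin sums of the control libraries, 54.5 to 69.7 FPKM, stand far above every marker sum, and the hepatocyte and low epithelial sums are the ones higher in control without overlap, at 1.03 to 1.39 FPKM and 0.405 to 0.499 FPKM.

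Haem is the oxygen-binding group of haemoglobin, and its pathway was expressed in both lines. All 13 genes of haem synthesis and transport were tested, and 0 passed the threshold in limma. At an unadjusted p under 0.05, 3 were lower and 0 higher, against 7.19% lower and 6.31% higher of all genes. The fold change was below 0 for 12 of 13, against 8197 of 15620 over all genes. The groups did not overlap for 6, all lower in DDX17_KO, against 12.6% lower and 8.09% higher of all genes. The median was -0.29 on the log2 scale, against -0.03 over all genes, or -0.18 after the correction for GC content and length. ALAS1, the enzyme that starts haem synthesis outside red cells, had 20.6, 26.1 and 24.5 FPKM in the DDX17_KO libraries, against 20.5, 25.9 and 21.8 FPKM in the control libraries. The groups overlapped fully. SLC25A38, the mitochondrial glycine carrier, averaged 12.5 FPKM in DDX17_KO and 14.6 FPKM in control, with overlap.

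Of 10 genes of haem breakdown and haemoglobin uptake, 8 were tested and 0 passed the threshold, while 3 were lower and 0 higher at an unadjusted p under 0.05, against the same 7.19% and 6.31% of all genes. The median was -0.33 on the log2 scale. BLVRA, a biliverdin reductase, averaged 25.4 FPKM in DDX17_KO and 29.6 FPKM in control. BLVRB, the other biliverdin reductase, averaged 10.6 ± 1.28 FPKM in DDX17_KO and 18.2 ± 4.27 FPKM in control (SD, n = 3 each), and these groups did not overlap. Its adjusted p was 0.340 in limma. CD163, the macrophage receptor for haemoglobin, was at or near 0 in all 6 libraries. Of 12 iron genes, 9 were tested and 0 passed, with 1 higher and 0 lower at an unadjusted p under 0.05, against 6.31% higher and 7.19% lower of all genes. FTL and FTH1, the ferritin chains, averaged 824 and 209 FPKM in DDX17_KO, against 1024 and 214 FPKM in control, with overlap for both.

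The regulators that drive or silence globin genes were present only in part. Of 24 transcription regulators, 14 were tested, 2 were at 0 in all 6 libraries and 0 passed the threshold in limma, while 1 was higher and 4 lower at an unadjusted p under 0.05, against 6.31% higher and 7.19% lower of all genes. GATA1 and KLF1 were the ones at 0 throughout, and BCL11A, the fetal globin repressor, was below the filter. GATA2 had 15.1, 17.1 and 12.6 FPKM in the DDX17_KO libraries, against 9.64, 12.3 and 9.75 FPKM in the control libraries. Each DDX17_KO library was above each control library, with a log2 fold change of 0.46 and an adjusted p of 0.369 in limma. NFE2L1, a relative of the red cell factor NFE2, averaged 11.1 FPKM in DDX17_KO and 10.5 FPKM in control.

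Of 14 genes of chromatin complexes that act on globin genes, 12 were tested and 0 passed, with 0 higher and 1 lower at an unadjusted p under 0.05, close to the 7.19% lower of all genes. KDM1A, the histone demethylase LSD1, had 46.7, 48.0 and 47.5 FPKM in the DDX17_KO libraries, against 65.1, 73.0 and 70.0 FPKM in the control libraries. The groups did not overlap, at an adjusted p of 0.340 in limma. CHD4, the remodeller of the NuRD complex, averaged 42.3 FPKM in DDX17_KO and 51.6 FPKM in control, again without overlap. Of 8 RNA and translation regulators, 7 were tested, and 0 passed the threshold, against 0.0384% lower and 0% higher of all genes. At an unadjusted p under 0.05 there were 0 as well, against 7.19% lower and 6.31% higher of all genes. PCBP1, a relative of the alpha-globin mRNA binding protein PCBP2, averaged 161 FPKM in DDX17_KO and 212 FPKM in control, and HNRNPK averaged 58.8 FPKM in DDX17_KO and 61.5 FPKM in control, both with overlap. Of the 4 other globins, MB, the myoglobin gene, was tested and averaged 0.452 ± 0.221 FPKM in DDX17_KO and 1.05 ± 0.217 FPKM in control (SD, n = 3 each). Its groups did not overlap, and the adjusted p was 0.367 in limma.

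The partners of NPRL3 in amino acid sensing were measured in full or nearly so. The other GATOR1 subunits are NPRL2 and DEPDC5. NPRL2 averaged 1.41 FPKM in DDX17_KO and 1.43 FPKM in control, and DEPDC5 averaged 1.83 FPKM in DDX17_KO and 2.26 FPKM in control, with overlap for both. All 5 genes of GATOR2, the complex that opposes GATOR1, were tested, with a median of -0.27. Of these, SEC13 averaged 10.2 FPKM in DDX17_KO and 12.7 FPKM in control, and WDR24 averaged 6.13 FPKM in DDX17_KO and 9.02 FPKM in control. Of the KICSTOR and amino acid sensor genes 9 of 10 were tested, of the Rag and Ragulator genes 12 of 13, and of the mTORC1 genes 9 of 9. Across these 5 lists 0 genes passed the threshold in limma, against 0.0384% lower and 0% higher of all genes. At an unadjusted p under 0.05 there were 0, against 7.19% lower and 6.31% higher of all genes. The list medians were -0.27 to -0.04. In the mTORC1 list the fold change was below 0 for 8 of 9, against 8197 of 15620 over all genes. Its groups did not overlap for 2 lower and 1 higher, against 12.6% lower and 8.09% higher of all genes. MTOR, the kinase itself, averaged 21.1 FPKM in DDX17_KO and 24.1 FPKM in control, without overlap. RHEB, its activator, averaged 14.1 FPKM in DDX17_KO and 16.7 FPKM in control, also without overlap. CASTOR2, SESN2, RRAGA and LAMTOR2 were the most abundant of the remaining lists, and their log2 fold changes were -0.35, -0.08, -0.26 and -0.27.

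**Figure D4:**
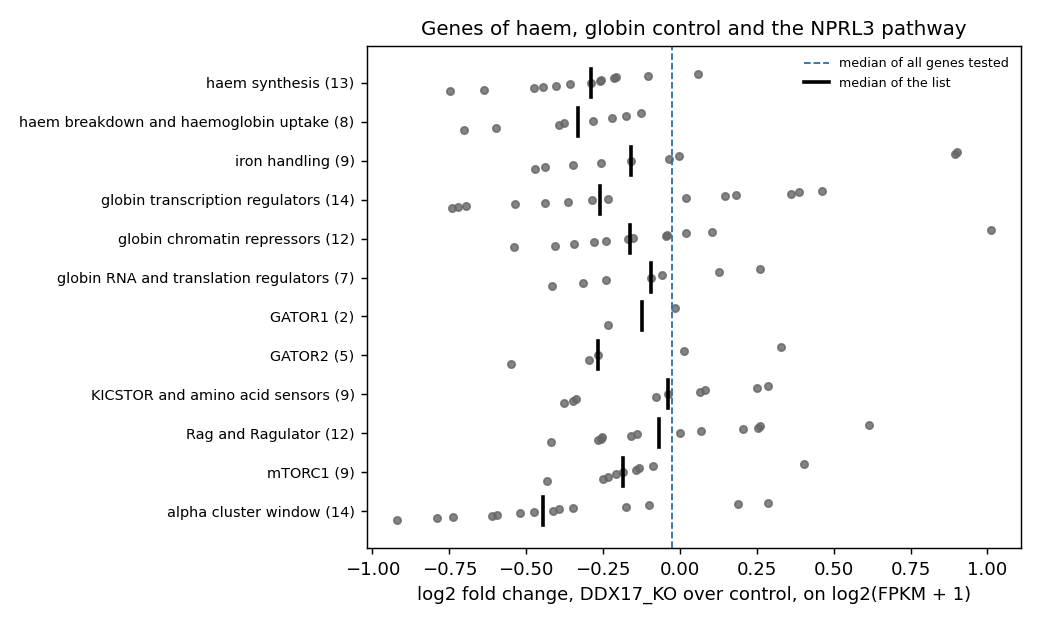
Log2 fold change of DDX17_KO over control (horizontal axis) of each tested gene of 12 lists, with the number of genes in brackets, a black bar at the list's median and a dashed line at the median of all genes tested, -0.03. The list medians lie between -0.44, for the genes around the alpha cluster, and -0.04, and none of the genes shown was past the threshold with all 6 libraries.

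The number of these genes called depended on the libraries numbered 2. Without DDX17_KO replicate 2, limma called 1 listed gene higher and 6 lower, against 1.95% higher and 1.72% lower of all genes. The higher one was ATRX, a chromatin remodeller gene whose mutations cause a syndrome with alpha-thalassaemia, at a log2 fold change of 1.66 (adjusted p = 0.0343 in limma). With all 6 libraries the ATRX fold change was 1.01 (adjusted p = 0.397 in limma), and the groups overlapped. The lower ones were MPG, SNRNP25 and FAM234A around the alpha cluster, UROS and ABCB6 of haem synthesis, and WDR24 of GATOR2, at log2 fold changes of -1.10, -0.89, -0.89, -0.87, -0.90 and -0.85. Without both libraries numbered 2, limma called 5 listed genes higher and 11 lower, against 5.51% higher and 3.3% lower of all genes. The fourth neighbour of the alpha cluster called lower there was POLR3K, at -0.65. These genes were named after their values had been seen.

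No other gene listed at 0 throughout the DDX17_KO line came near HBB and HBA2 by its lowest control value. Ranked by the lowest control value, HBB and HBA2 came first, at 23.1 and 13.8 FPKM. The next were AL161669.2, a processed pseudogene, at 1.64 FPKM, and the small RNA genes RNU6-759P at 1.33 FPKM and MIR6823 at 1.13 FPKM. MIRLET7I at 0.856 FPKM and MIR548S at 0.838 FPKM followed. All of these are short genes, where a value near 1 FPKM is very few fragments at the estimated depths. At a lowest value of at least 1 FPKM there were 5 such genes, the 2 globins included, and in the other direction 9 genes were at 0 in all control libraries. The highest of those 9, RNU7-71P, is short as well and had 1.57 FPKM in its lowest DDX17_KO library. Apart from the globins, both counts thus rest mostly on very few fragments. Among protein-coding genes the next after the globins was LXN, a carboxypeptidase inhibitor gene, at 0.605 FPKM. In all, 91 protein-coding genes were at 0 in every DDX17_KO library and above 0 in every control library, and 72 had the opposite pattern. The DDX17_KO libraries were all shallower, and low genes are more readily listed at 0 in such libraries. The part of depth in these counts was not tested.

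**Figure D5:**
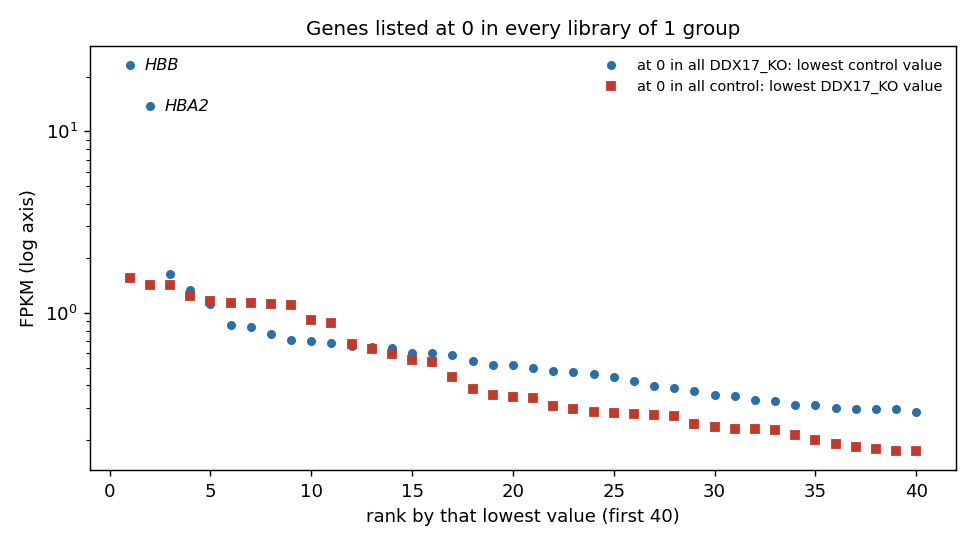
Genes listed at 0 in every DDX17_KO library, by their lowest control FPKM (blue circles), and genes listed at 0 in every control library, by their lowest DDX17_KO FPKM (red squares), for the first 40 ranks of each on a logarithmic axis. HBB and HBA2 lie at 23.1 and 13.8 FPKM, and every other gene of either kind is below 2 FPKM.

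Across the 6 libraries, the tested genes whose log2(FPKM + 1) followed the mean of HBB, HBA1 and HBA2 most closely were RNU6-759P, MIR6823, DENND5A, NOD1 and EDN1, with Pearson correlations of 0.998, 0.998, 0.997, 0.994 and 0.992. RNU6-759P and MIR6823 are short genes, at 0 in every DDX17_KO library and between 1.13 and 1.57 FPKM in control. Those values are very few fragments, so both correlations carry little weight. Of 15616 genes, 417 had a correlation above 0.9. The 6 points form 2 groups by genotype, and any gene with a steady difference between them scores high, so the measure is a description. EDN1, which encodes the vasoconstrictor peptide endothelin, had 6.53, 7.08 and 8.09 FPKM in the DDX17_KO libraries, against 24.5, 25.4 and 23.1 FPKM in the control libraries. DENND5A, a regulator of Rab proteins, averaged 5.61 FPKM in DDX17_KO and 8.14 FPKM in control. NOD1, a sensor of bacterial peptidoglycan, averaged 0.988 FPKM in DDX17_KO and 1.44 FPKM in control.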

How the data were processed

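The authors deposited 1 table of FPKM per gene for the 6 MHCC97H libraries. Per the submitters' processing notes, hg38 was the build, and StringTie, HISAT2, CASAVA 1.8 and edgeR were used, in roles that the notes do not state. Annotation release, strandedness and filters were not given in the sources used here. Sample titles gave each library its group and number. The members and gene lists were chosen with earlier results of these data known.

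Depth was estimated from genes with 1 transcript in GENCODE release 29: FPKM times length fell within 0.05 of a whole fragment for 99.6% to 99.7% of values up to 20 fragments. The values of genes with several transcripts are not whole fragments, so no count test was run. The model was fitted on log2(FPKM + 1) by limma 3.58.1 (R 4.3.3), with an intensity trend, to the 15620 genes that averaged 0.5 FPKM or more. Tests were two-sided, with Benjamini-Hochberg adjustment and a threshold of 0.05. Fold changes on this scale understate those of low genes. Scripts were tested on simulated data. Python 3.11.15, pandas 2.3.3 and Biopython served for tables and alignments.

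Deviations from the group means correlated between same-numbered libraries at 0.3, 0.546 and 0.214 for replicates 1, 2 and 3. By that measure, each being over 0.1, the numbers were taken to pair the libraries. The limma fit behind the Results nevertheless had no pairing term, and the replicate block was run as an alternative. This pairing comes from the data and not from the labels. DDX17_KO replicate 3 correlated more with control replicate 1, at 0.329, than with control replicate 3. Replicates 2 stood apart in both groups, so the measure cannot tell how replicates 1 and 3 pair. Named were DDX17, all members, every gene within 200 kb of a cluster that averaged 0.5 FPKM or more, and the 2 most abundant members of each list, since none passed the threshold. Named too were the 5 other genes at 0 in all DDX17_KO libraries with the highest control minimum, and the 5 with the closest pattern. Alternatives were a replicate block, a pseudocount of 0.1, no filter, a filter at 2 FPKM, median-of-ratios scaling, no trend, each library left out, and both libraries numbered 2 left out. The correction for GC content and transcript length (splines with 4 degrees of freedom, 99.64% of genes tested with both) was chosen after seeing the data.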

Additional observations from a re-analysis of the deposited data

How the results depend on the processing

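With all 6 libraries limma called 0 genes higher and 6 lower in DDX17_KO. The members that entered the fit count among all genes, so the shares of all genes called include them. EDN1 was among the 6 called lower. With a replicate block, which changed no call on the listed genes or DDX17, 4 were lower. In limma with this block 4460 genes had an unadjusted p under 0.05, against 2109 in the main fit. The adjusted p of DDX17 was then 0.0718. The unadjusted counts given for each list come from the main fit, which has no pairing term. Without a filter 3 were lower, and the correction for GC content and length gave 1 higher. Leaving out 1 library at a time gave 0 to 304 genes higher and 3 to 268 lower, with 0 to 1 listed genes higher and 0 to 6 lower. The highest counts came without DDX17_KO replicate 2, and without DDX17_KO replicate 1 there were 4 higher. The DDX17 log2 fold change then ran from -1.76 to -1.04, the last without DDX17_KO replicate 2, where its adjusted p in limma was 0.0334. Without both libraries numbered 2 the counts were 860 higher and 516 lower, 5 listed genes higher and 11 lower, and DDX17 stood at -1.08 (adjusted p = 0.0349). The cause of these shifts was not tested. The HBE1 log2 difference changed sign, at 0.061 with all libraries, -0.073 without DDX17_KO replicate 2 (up to 0.13 with another library left out) and -0.081 without both libraries numbered 2, and it rests on about 1 fragment. HBB, HBA1, HBA2 and NPRL3 kept their sign under the 10 alternatives recomputed for single members, namely the pseudocount, the scaling, the correction for GC content and length, and the libraries left out. The block, the filters and the trend leave a member's difference of means as it is and were not recomputed. The NPRL3 log2 difference ran from -0.85 to -0.24. No range is given for the adult globins, since against values of 0 the pseudocount sets the size. The summed globins ran from 0.0354 to 0.523 FPKM in DDX17_KO and from 58.4 to 65.9 FPKM in control. Depth limits what can be said of the delta, fetal, embryonic and theta globins.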
